A study of Mus musculus with 24 samples.

Results

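The collagen chains are 44 of the 19938 genes that could be measured one by one in 24 samples of cultured mouse muscle cells. A gene was included when its probe set carried 1 gene symbol made of Col, a number, the letter a and a second number; 46 probe sets fitted, and where a gene had several (Col6a5 and Col6a6) the probe set with the highest mean over all arrays was kept. By type they comprise 11 fibrillar chains, 8 chains of basement membrane collagens, 7 beaded filament and von Willebrand chains, 9 FACIT chains (fibril-associated collagens with interrupted helices), 4 network and anchoring chains, 4 transmembrane chains and Col26a1.

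Collagens are extracellular matrix proteins whose chains, called alpha chains, wind around each other into a stiff helix inside the cell, and many types are then trimmed and assembled outside it. In skeletal muscle, type I, III and V fibrils form the connective tissue between fibres, type IV forms the sheet of the basement membrane on each fibre, and type VI forms beaded filaments between them. Fibroblasts are the best known source of fibrillar collagen in muscle, although muscle cells in culture also make matrix.

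The cells were 2 immortalised mouse myoblast lines, wild-type H-2Kb-tsA58 and MuSK-/- (MuSK-null), each grown as proliferating myoblasts and as fused myotubes, with and without bone morphogenetic protein 4 (BMP4). MuSK is a kinase in the muscle membrane that organises the synapse with the motor nerve. The design asks whether its loss alters what BMP4 does to the cells, and whether that depends on their stage. Myoblasts were kept at 33 °C in 20% fetal bovine serum with interferon-γ, which keeps the immortalising antigen active. Myotubes were formed at 37 °C in 5% horse serum over 3 days. Treated cells received 25 ng/ml BMP4 for 8 h. Genotype, stage and treatment give 8 groups of 3 arrays: untreated and BMP4-treated wild-type myoblasts, untreated and BMP4-treated MuSK-null myoblasts, and the same 4 groups as myotubes. Each genotype is represented by 1 line, so genotype and line cannot be told apart. Before BMP4, myoblasts spent 4 h without serum. The labels do not say whether the untreated myoblasts did so too, so BMP4 and serum deprivation cannot be told apart there; myotubes stayed in serum. The labels call the 3 samples of a group biological replicates without naming separate cultures, so a p-value here reflects only how far these samples scatter, which may be technical.

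All values are log2 signals of whole-transcript Affymetrix arrays. A difference of 1 is a doubling of signal, and signals of different genes are not compared with each other because their probes differ. Array medians ran from 7.38 to 7.50, and the median SD within a group was 0.08 for the collagens and 0.09 for all genes. The Musk probe set, which checks the labels, read 11.50 to 11.63 in untreated wild-type and 10.69 to 10.94 in untreated MuSK-null myoblasts, and 12.69 to 12.76 against 11.17 to 11.24 in myotubes. It was lower in MuSK-null cells at both stages (log2 change -0.72, SE 0.07, adjusted p = 2.81e-08 in myoblasts; -1.51, SE 0.07, adjusted p = 5.68e-14 in myotubes), but it was far from dark there, and which part of the gene its probes cover was not analysed here. Within the myoblasts, 1 array of each group (wild-type untreated replicate 2, wild-type BMP4 replicate 3, MuSK-null untreated replicate 2 and MuSK-null BMP4 replicate 2) deviated from its group in the same way over all genes, with correlations from 0.42 to 0.54. These arrays were picked after the data had been seen, and results that rest on them are also given without them.

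Markers of muscle were present in every group. The summed linear signal of 8 muscle genes (Myod1, Myf5, Myog, Des, Myh3, Ckm, Acta1, Chrna1) was 49337 to 50279 in untreated wild-type myoblasts and 17683 to 19850 in untreated MuSK-null myoblasts, and 92362 to 93588 and 76226 to 77061 in the corresponding myotubes. Of these 8, 7 were lower and 1, Myf5, was higher in MuSK-null myoblasts, and in myotubes 5 were lower and 1 higher. The summed signal of 9 fibroblast genes (Pdgfra, Thy1, Dcn, Lum, Dpt, Fap, Pdgfrb, Tcf21, Meox1) was 8093 to 8365 in wild-type and 10475 to 11051 in MuSK-null myoblasts, with 3 higher and 2 lower, and 5936 to 6389 and 11198 to 12581 in myotubes, with 5 higher and 3 lower. Among the genes that were higher were decorin (Dcn), by 2.30 in MuSK-null myoblasts and 2.66 in myotubes, and lumican (Lum), by 3.59 in myotubes. Both encode small proteoglycans that bind collagen fibrils. With 2 of the 9 lower in myoblasts and 3 in myotubes, the list did not move as a whole, and sizes are given here for higher genes only. In myoblasts 100% of the muscle and 55.6% of the fibroblast list were called, against 31.3% of all genes. In myotubes the shares were 75% and 88.9%, against 37.4%. A linear sum follows its brightest genes most. Summed signals over all arrays stayed between 438 and 552 for 5 endothelial genes, between 421 and 551 for 5 macrophage genes and between 341 and 497 for 3 Schwann cell genes. They ran from 516 to 1086 for 5 adipocyte genes and from 19719 to 23594 for 6 smooth muscle or pericyte genes. No marker read 0 on any array. The cultures are bulk samples, so a larger share of cells that express a gene and more RNA per cell cannot be told apart.

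Collagen levels separated the groups mostly by genotype and stage. Of the 44 collagens, 18 had group means that spanned more than 1 log2 unit, and 32 passed the test (limma, adjusted p under 0.05) in at least 1 of 11 comparisons. The other 12 passed in none: Col4a3 of the basement membrane, Col6a4, Col6a5, Col6a6 and Col28a1 of the beaded filament class, the cartilage chains Col9a1, Col9a2, Col9a3 and Col11a2, the anchoring fibril chain Col7a1, Col17a1 of hemidesmosomes and Col20a1. Their values lay between 6.52 and 8.85, and the largest span of their group means was 0.44. Col6a6, higher by 0.30 in MuSK-null myotubes with an adjusted p of 0.0603, was called under several alternatives (adjusted p down to 0.0081). The dimmer probe set of Col6a5 averaged 5.86 in untreated wild-type and 6.21 in untreated MuSK-null myotubes, against 6.94 and 7.12 for the one kept. With the dimmer probe set or the mean of both, Col6a5 was called as higher there (adjusted p down to 0.00912).

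**Figure D1:**
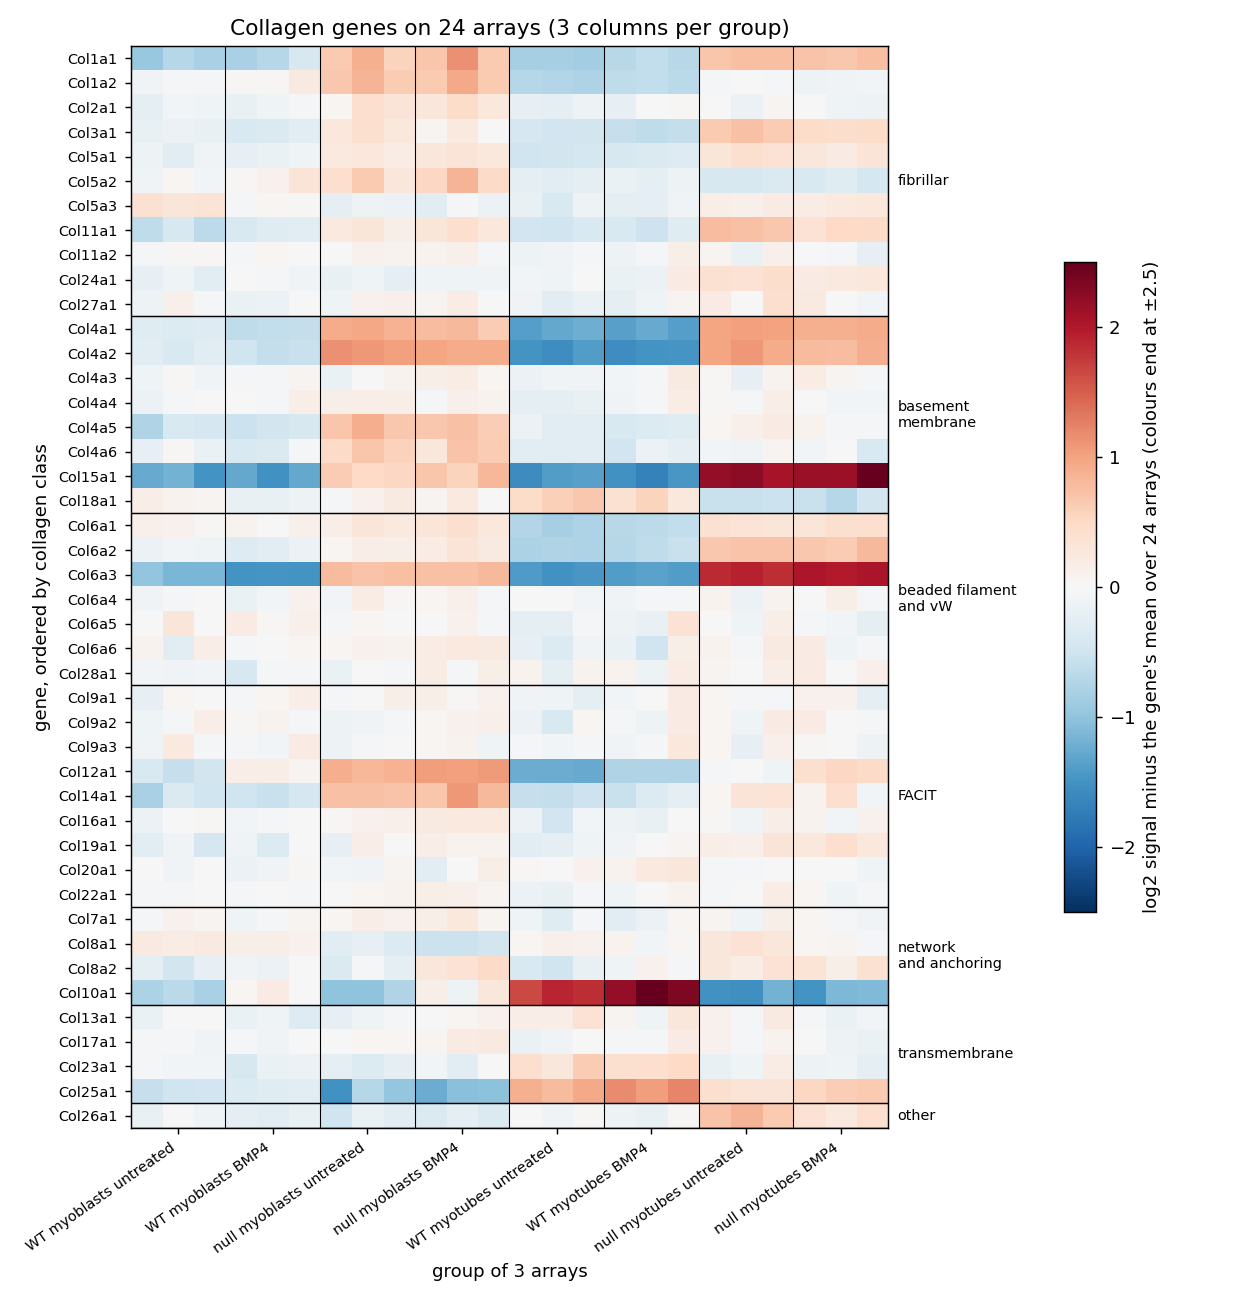
Log2 signal of the 44 collagens on each of the 24 arrays, as the difference from the gene's mean over all arrays, with genes in rows ordered by class and 3 array columns per group; red is higher and blue is lower, and the colours end at ±2.5. Col15a1 and Col6a3 are red on the MuSK-null myotube arrays (untreated group means 10.74 and 11.89), Col10a1 is red on the wild-type myotube arrays (untreated group mean 10.80), and most rows of Col6a4 to Col9a3 are pale throughout.

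The first comparison set untreated MuSK-null against untreated wild-type cells. In myoblasts 17 collagens were higher and 3 lower in the MuSK-null line, and in myotubes 24 were higher and 4 lower. Among all genes tested, 31.3% were called in myoblasts (15.3% higher, 16.0% lower) and 37.4% in myotubes (19.4% higher, 18.0% lower). The median change was 0.09 for the collagens against -0.01 for all genes in myoblasts, and 0.27 against 0.04 in myotubes. Without the 4 deviating arrays, 16 were higher and 3 lower in myoblasts. The muscle marker sum given above was lower and the fibroblast marker sum higher in MuSK-null cells at both stages. The part of either in these collagen differences was not tested.

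Among the fibrillar chains, 7 of 11 were higher and 1 lower in MuSK-null myoblasts, and 8 of 11 were higher and 0 lower in myotubes, where the count of lower chains at an unadjusted p under 0.05 in limma was also 0. The share called was 72.7% at each stage, against 31.3% and 37.4% of all genes. Col1a1, which with Col1a2 makes type I collagen, read 11.39, 11.64 and 11.53 on the wild-type and 12.99, 13.23 and 12.90 on the MuSK-null myoblast arrays. In myotubes it read 11.51, 11.51 and 11.47 against 13.04, 13.09 and 13.09. Every MuSK-null array lay above every wild-type array of its stage, and the change was 1.52 (SE 0.11, adjusted p = 1.28e-10) in myoblasts and 1.58 (SE 0.11, adjusted p = 5.83e-11) in myotubes. Col1a1 was highest on the deviating array in each of the myoblast groups, and without those arrays its change in myoblasts was 1.48. Col1a2 read 11.98, 12.02 and 12.03 against 12.75, 12.92 and 12.72 in myoblasts and 11.37, 11.35 and 11.30 against 12.03, 12.08 and 12.04 in myotubes. Its changes were smaller than those of its partner chain but the groups again did not overlap (0.79, adjusted p = 7.75e-09, and 0.71, adjusted p = 3.43e-08). Col3a1, the chain of type III collagen in pliable connective tissue, read 10.97, 11.00 and 10.97 against 11.41, 11.55 and 11.40 in myoblasts, and 10.73, 10.67 and 10.69 against 11.81, 11.88 and 11.79 in myotubes. It was higher by 0.48 (SE 0.06, adjusted p = 1.37e-06) and by 1.13 (SE 0.06, adjusted p = 6.55e-13).

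Type V collagen sits inside type I fibrils and limits their diameter. Its chain Col5a1 was higher in MuSK-null cells at both stages, by 0.39 (adjusted p = 7.47e-06) in myoblasts and 0.81 (adjusted p = 4.37e-11) in myotubes. Col5a2 was higher by 0.49 in myoblasts (adjusted p = 0.00025), where it read 9.93, 10.07 and 9.95 against 10.44, 10.67 and 10.30. In myotubes it differed by -0.15 (95% interval -0.34 to 0.05, adjusted p = 0.247). The myotube groups of Col5a2 did not overlap, and it was called as lower with the deviating myoblast arrays as a block (adjusted p = 0.0351) or left out (adjusted p = 0.0334). The third, Col5a3, read 8.62, 8.55 and 8.60 in wild-type and 8.00, 8.12 and 8.09 in MuSK-null myoblasts, and 8.06, 7.86 and 8.12 against 8.40, 8.38 and 8.46 in myotubes. It was lower by 0.52 on the log2 scale in MuSK-null myoblasts (change -0.52, adjusted p = 3.43e-06) and higher by 0.40 in MuSK-null myotubes (adjusted p = 8.21e-05). Col11a1, a chain of the fibrils of cartilage, was higher by 0.80 and 1.18, and Col2a1, the main cartilage collagen, by 0.41 in myoblasts. Col24a1 and Col27a1, which are less abundant fibrillar chains, were higher in myotubes by 0.46 and 0.39. The last fibrillar chain, Col11a2, was called in no comparison.

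**Figure D2:**
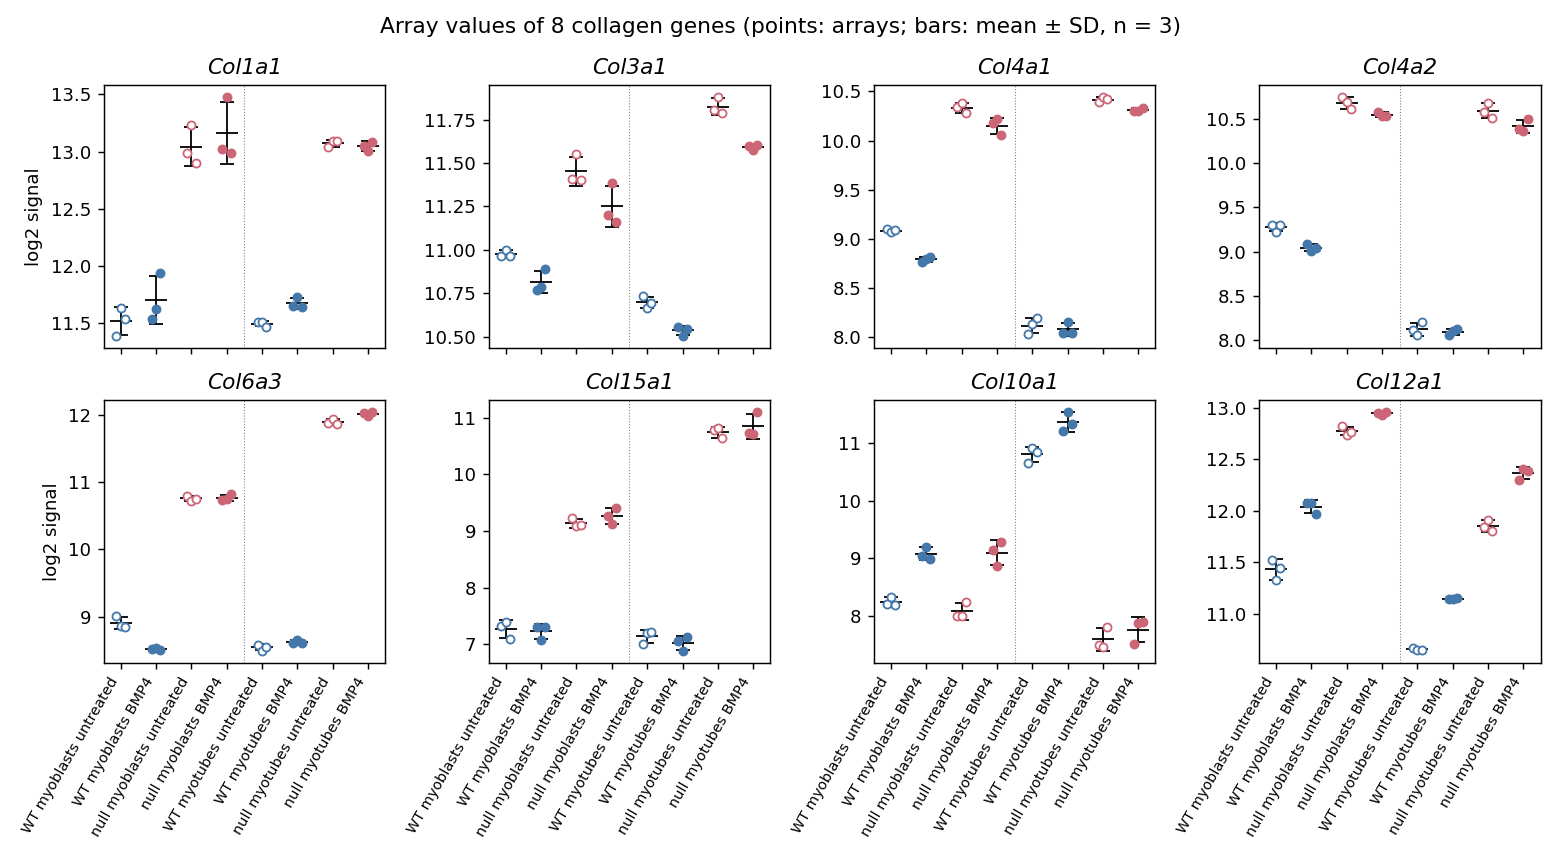
Log2 signal of 8 collagens on each array (points) with the group mean and SD (bars, n = 3) in the 8 groups; blue is wild type, red is MuSK-null, open points are untreated, filled points are BMP4-treated, and each panel has its own vertical axis, which does not start at 0. Col4a1, Col4a2, Col6a3 and Col15a1 lie higher in MuSK-null than in wild-type cells at both stages, with untreated myotube means of 10.42, 10.59, 11.89 and 10.74 against 8.12, 8.12, 8.55 and 7.14, and Col10a1 is high in wild-type myotubes alone among the groups (10.80 and 11.36).

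Basement membrane chains showed the same direction in most members: 6 of 8 were higher and 0 lower in MuSK-null myoblasts (0 lower also at an unadjusted p under 0.05 in limma), and in MuSK-null myotubes 5 were higher and 1 lower. At each stage 75% of the class was called, against 31.3% and 37.4% of all genes. Col4a1 and Col4a2 build the type IV network found in nearly every basement membrane. In the RefSeq annotation they are neighbours read in opposite directions, with start sites 21 bases apart, so the windows of 250 bases before to 50 bases after each start overlap. They are shown because the chains also had the most similar pattern of any collagens that varied by over 1 unit; capitals mark the 78 bases that both windows share, which read as reverse complements because the genes lie on opposite strands. Both are given 5′ to 3′ in the direction of the gene (RefSeq, GRCm38.p6), Col4a1 from chr8:11312777-11313076 on the minus strand and Col4a2 from chr8:11312555-11312854 on the plus strand.
Col4a1: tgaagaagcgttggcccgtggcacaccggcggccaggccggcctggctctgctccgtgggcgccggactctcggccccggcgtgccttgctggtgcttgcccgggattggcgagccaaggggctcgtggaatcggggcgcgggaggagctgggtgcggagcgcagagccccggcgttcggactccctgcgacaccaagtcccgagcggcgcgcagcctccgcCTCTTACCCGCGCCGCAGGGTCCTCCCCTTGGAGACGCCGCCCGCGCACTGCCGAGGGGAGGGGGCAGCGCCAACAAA
Col4a2: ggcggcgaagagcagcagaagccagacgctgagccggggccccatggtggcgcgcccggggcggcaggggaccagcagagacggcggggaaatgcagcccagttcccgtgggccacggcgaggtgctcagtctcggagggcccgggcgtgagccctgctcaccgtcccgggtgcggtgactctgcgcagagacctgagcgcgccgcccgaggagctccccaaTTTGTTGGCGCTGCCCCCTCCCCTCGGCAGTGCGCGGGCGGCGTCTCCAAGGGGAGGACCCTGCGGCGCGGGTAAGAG
Col4a1 read 9.10, 9.07 and 9.09 on the wild-type and 10.34, 10.38 and 10.28 on the MuSK-null myoblast arrays, and 8.03, 8.13 and 8.19 against 10.39, 10.44 and 10.42 in myotubes. Col4a2 read 9.30, 9.22 and 9.31 against 10.75, 10.69 and 10.62, and 8.11, 8.05 and 8.20 against 10.58, 10.68 and 10.52. Neither chain overlapped between genotypes at either stage. In myoblasts Col4a1 was higher by 1.25 (SE 0.06, adjusted p = 2.68e-14) and Col4a2 by 1.41 (SE 0.06, adjusted p = 8.78e-15). In myotubes the differences were 2.30 (SE 0.06, adjusted p = 6.19e-19) and 2.47 (SE 0.06, adjusted p = 4.85e-19), that is 4.92-fold and 5.55-fold.

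The other type IV chains have narrower tissue ranges. Col4a5 read 7.07, 7.44 and 7.41 against 8.52, 8.73 and 8.51 in myoblasts, and 7.69, 7.57 and 7.54 against 7.88, 7.95 and 8.04 in myotubes. It was higher by 1.28 (adjusted p = 2.12e-11) in MuSK-null myoblasts and by 0.36 (adjusted p = 0.00147) in myotubes. Its neighbour Col4a6 was higher by 0.69 in myoblasts (adjusted p = 4.87e-05). Col4a4 was higher by 0.21 and 0.27. The myoblast call of Col4a4 was lost (adjusted p 0.07 to 0.16) without wild-type untreated replicate 1 or any 1 of the 3 MuSK-null untreated replicates, and also without the deviating arrays.

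Col15a1 and Col18a1 carry sugar chains and anchor basement membranes to the surrounding matrix; the end of Col18a1 is the source of endostatin. Col15a1 read 7.32, 7.40 and 7.10 in wild-type and 9.22, 9.08 and 9.10 in MuSK-null myoblasts, and 7.00, 7.19 and 7.22 against 10.78, 10.81 and 10.64 in myotubes. It had the largest increase of any collagen at both stages, 1.86 (SE 0.11, adjusted p = 1.65e-12) and 3.61 (SE 0.11, adjusted p = 1.14e-17), the latter a 12.2-fold difference. Col18a1 read 8.70, 8.62 and 8.60 against 8.51, 8.64 and 8.76 in myoblasts, where the groups overlapped, and 9.00, 9.12 and 9.20 against 7.97, 7.97 and 8.01 in myotubes, where it was lower in MuSK-null cells (-1.13, SE 0.08, adjusted p = 1.59e-10). These 2 related chains therefore stood in opposite directions in MuSK-null myotubes.

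Type VI collagen forms beaded filaments around muscle fibres, and mutations in its chains cause Bethlem and Ullrich muscle disease. Of the 7 chains of the class, 2 were higher in MuSK-null myoblasts and 3 in myotubes, with 0 lower at either stage (0 at either stage also at an unadjusted p under 0.05 in limma). The shares called, 28.6% and 42.9%, were near the 31.3% and 37.4% of all genes. Col6a3 read 9.02, 8.87 and 8.86 in wild-type and 10.80, 10.72 and 10.76 in MuSK-null myoblasts, and 8.59, 8.50 and 8.56 against 11.88, 11.94 and 11.86 in myotubes. The changes were 1.84 (SE 0.05, adjusted p = 9.16e-18) and 3.34 (SE 0.05, adjusted p = 3.57e-22), the latter 10.1-fold. The partner chains Col6a1 and Col6a2, which are neighbouring genes, differed far less in myoblasts. Col6a1 read 10.96, 10.95 and 10.87 against 11.00, 11.14 and 11.08 there, a difference of 0.15 that did not pass (95% interval 0.03 to 0.27, adjusted p = 0.0627) although the groups did not overlap, and Col6a2 was higher by 0.23 (adjusted p = 0.00652). Col6a1 was called in myoblasts with the deviating arrays as a block (adjusted p = 0.0224), with trend and robust moderation (0.0394), with dim genes left out (0.047) and without MuSK-null replicate 1 (0.0383). In myotubes Col6a1 read 10.11, 10.01 and 10.07 against 11.22, 11.18 and 11.13, higher by 1.11 (adjusted p = 4.57e-13). Col6a2 read 9.61, 9.65 and 9.64 against 11.07, 11.12 and 11.12, higher by 1.47 (adjusted p = 9.02e-15).

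FACIT collagens lie on the surface of other fibrils. Of 9, 2 were higher in MuSK-null myoblasts and 5 in myotubes, with 0 lower (0 also at an unadjusted p under 0.05 in limma). The share called in myoblasts was 22.2%, below the 31.3% of all genes, and in myotubes 55.6% against 37.4%. Col12a1, which coats type I fibrils in tendon and muscle, read 11.53, 11.33 and 11.44 against 12.82, 12.74 and 12.77 in myoblasts, and 10.67, 10.65 and 10.65 against 11.85, 11.91 and 11.80 in myotubes. It was higher by 1.34 (adjusted p = 6.54e-15) and 1.20 (adjusted p = 5.72e-14). Col14a1, a close relative, was higher by 1.29 (adjusted p = 1.47e-08) and 0.81 (adjusted p = 1.20e-05). The remaining 3 in myotubes were small: Col19a1 by 0.41, Col16a1 by 0.27 and Col22a1 by 0.17. Col16a1 lost its call without wild-type myotube replicate 2 (the arrays overlapped even with it) or MuSK-null myotube replicate 3 (adjusted p 0.116 and 0.202). Col22a1 lost its call without wild-type myotube replicate 1, wild-type myotube replicate 2 or MuSK-null myotube replicate 3 (adjusted p 0.113 to 0.269).

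The remaining classes held most of the collagens that were lower in MuSK-null cells. Col10a1, the short-chain network collagen of hypertrophic cartilage, is shown with its start region because it had the largest fall of any collagen. The RefSeq window runs 250 bases before to 50 after its start, chr10:34389731-34390030 on the plus strand of GRCm38.p6, and capitals mark the TATAAA match.
Col10a1: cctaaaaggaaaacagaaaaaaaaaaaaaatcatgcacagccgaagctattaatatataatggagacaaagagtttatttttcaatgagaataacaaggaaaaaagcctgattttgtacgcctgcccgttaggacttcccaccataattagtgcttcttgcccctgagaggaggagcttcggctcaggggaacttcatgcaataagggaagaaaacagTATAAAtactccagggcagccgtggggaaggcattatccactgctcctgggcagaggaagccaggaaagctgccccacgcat
Col10a1 read 8.21, 8.34 and 8.20 in wild-type and 8.00, 8.00 and 8.25 in MuSK-null untreated myoblasts, groups that overlapped. In untreated myotubes it read 10.65, 10.91 and 10.85 in wild-type and 7.50, 7.47 and 7.82 in MuSK-null cells. The difference in myotubes was -3.21 (SE 0.12, adjusted p = 1.22e-15), 9.24-fold lower. Col25a1, a transmembrane collagen made by developing muscle and needed for motor axons to enter it, read 8.10, 8.18 and 8.20 against 7.16, 7.96 and 7.72 in myoblasts, and 9.57, 9.47 and 9.63 against 9.09, 9.01 and 9.00 in myotubes. It was lower by similar amounts at both stages (-0.54, adjusted p = 0.00111, and -0.52, adjusted p = 0.00131), with the 3 MuSK-null myoblast arrays widely spread. Col23a1, also transmembrane, was lower in MuSK-null myotubes (-0.48, adjusted p = 0.000375). The short-chain collagen Col8a1, known from vessel walls and the cornea, read 11.48, 11.44 and 11.48 against 11.01, 11.05 and 10.92 in myoblasts, lower in MuSK-null cells (-0.47, adjusted p = 3.53e-07), and was higher in MuSK-null myotubes by 0.21 (adjusted p = 0.00357). Its partner Col8a2 was higher in MuSK-null myotubes by 0.63 and Col26a1 by 0.75.

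Start regions were searched on both strands for GGCGCC (a site bound by SMAD proteins, which carry BMP signals), CAGAC (a core SMAD site), CANNTG (the E-box of myogenic factors) and, added after the sequences were read, TATAAA. Windows were found for 35 of the 44 collagens, 38 windows in all. GGCGCC was in 13.2% of them against 11.9% of 32851 windows of all genes, CAGAC in 52.6% against 49.6%, CANNTG in 52.6% against 72.3% and TATAAA in 13.2% against 13.6%. Overlapping matches of different motifs were each counted. The Col4a1 window held 1 GGCGCC, the Col4a2 window 1 CAGAC and the Col10a1 window 1 TATAAA, and none of the other 3 motifs was in any of these 3 windows. A match is a run of letters and was not tested as a site.

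Differentiation was compared within each genotype, untreated myotubes against untreated myoblasts. In wild-type cells 6 collagens were higher and 10 lower in myotubes, and in MuSK-null cells 12 were higher and 9 lower. Over all genes, 45.0% were called in wild-type cells (20.3% higher, 24.7% lower) and 41.6% in MuSK-null cells (18.2% higher, 23.4% lower). The collagen medians were -0.10 and 0.03, against -0.05 and -0.01 for all genes. In both lines 7 of the 8 muscle markers were higher in myotubes. These comparisons use the same untreated arrays as those between genotypes, and medium and temperature changed together with the stage.

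In wild-type cells 22.7% of the collagens were called as lower, near the 24.7% of all genes. They included chains of the fibrils, the type IV network and the type VI filaments. Of the fibrillar chains 4 fell and 0 rose (0 rises also at an unadjusted p under 0.05 in limma): Col1a2 by -0.67 (adjusted p = 4.75e-08), Col5a3 by -0.58, Col5a1 by -0.31 and Col3a1 by -0.28. Col1a1 differed by -0.02 (95% interval -0.25 to 0.21, adjusted p = 0.89), and Col5a2 by -0.21 (adjusted p = 0.08); Col5a2 was called with the compared groups alone (adjusted p = 0.0323) and without the deviating arrays (adjusted p = 0.03). Col4a2 fell by 1.16 on the log2 scale (SE 0.06, adjusted p = 1.72e-13) and Col4a1 by 0.97 (SE 0.06, adjusted p = 1.52e-12). The type VI chains Col6a1, Col6a2 and Col6a3 changed by -0.86, -0.66 and -0.37, all called, and Col12a1 by -0.78 (adjusted p = 6.88e-11). The rises were led by Col10a1 at 2.55 (SE 0.12, adjusted p = 3.71e-14), followed by Col25a1 at 1.40 (SE 0.12, adjusted p = 1.21e-09), Col23a1 at 0.50 and Col18a1 at 0.47. Col4a5 rose by 0.29 and Col13a1, a transmembrane collagen of the neuromuscular synapse, by 0.29. The call of Col4a5 was lost without wild-type myoblast replicate 1 (adjusted p = 0.0804), and that of Col13a1 without wild-type myoblast replicate 1 or wild-type myotube replicate 3 (adjusted p 0.0687 and 0.0758).

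In MuSK-null cells the same step changed 21 collagens, and 11 of these were among the 16 called in wild-type cells. That is 47.7% of the collagens in MuSK-null cells, near the 41.6% of all genes. In wild-type cells it is 36.4%, below the 45.0% of all genes. Of the 11, 4 moved the same way in both lines (Col12a1, Col1a2, Col23a1 and Col25a1) and 7 moved in opposite directions. The shares of all genes called in both lines, or in opposite directions, are not given here. Col15a1 rose by 1.61 (SE 0.11, adjusted p = 1.18e-11), Col25a1 by 1.42 (SE 0.12, adjusted p = 1.06e-09), Col6a3 by 1.13 (SE 0.05, adjusted p = 3.80e-14), Col26a1 by 1.04 (SE 0.08, adjusted p = 3.13e-10) and Col6a2 by 0.58 (adjusted p = 4.61e-08). Col8a1, Col24a1, Col11a1, Col8a2, Col3a1, Col5a3 and Col23a1 rose by 0.58, 0.57, 0.49, 0.48, 0.37, 0.34 and 0.25. Col23a1 lost its call without any 1 of the 3 MuSK-null myoblast arrays or without MuSK-null myotube replicate 3 (adjusted p 0.0615 to 0.295). The falls were those of Col12a1 (-0.92, adjusted p = 3.40e-12), Col5a2 (-0.84, adjusted p = 8.63e-08), Col1a2 (-0.75, adjusted p = 8.98e-09), Col18a1 (-0.65, adjusted p = 6.41e-07) and Col4a5 (-0.63, adjusted p = 1.14e-06), with Col4a6, Col14a1, Col10a1 and Col2a1 at -0.60, -0.49, -0.49 and -0.29. Col2a1, whose groups overlapped, lost its call without replicate 2 of either group (adjusted p 0.0664 and 0.0773). Col1a1 (0.03, 95% interval -0.20 to 0.26), Col4a1 (0.08, -0.04 to 0.20), Col4a2 (-0.09, -0.22 to 0.04), Col5a1 (0.12, 0.00 to 0.24) and Col6a1 (0.10, -0.02 to 0.23) did not pass. Of these, Col5a1 was called after quantile normalization (adjusted p = 0.0229) and Col6a1 with the deviating arrays as a block (adjusted p = 0.0425).

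**Figure D3:**
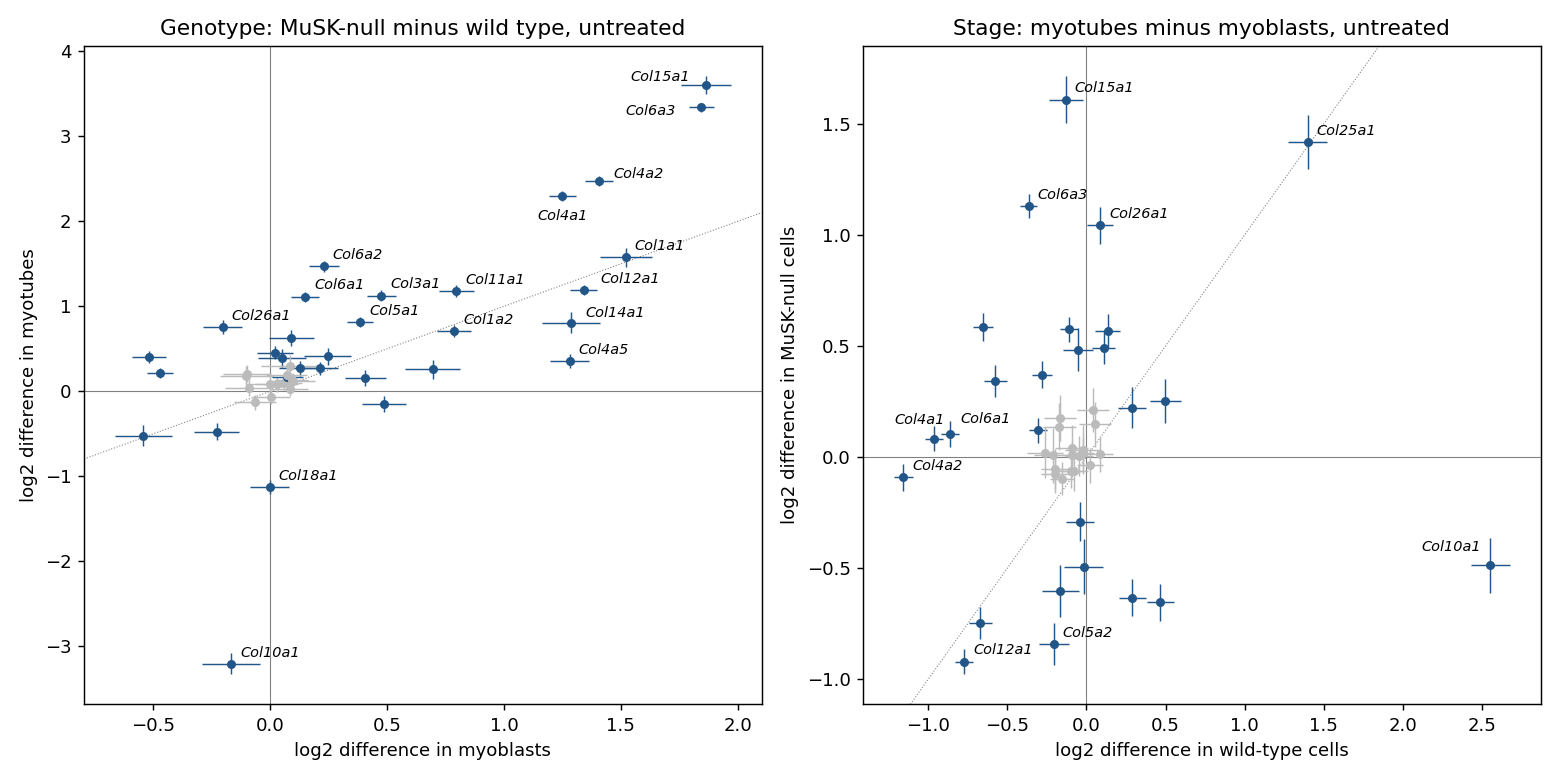
Log2 differences of the 44 collagens with their standard errors (bars). The left panel sets the genotype difference in myotubes against that in myoblasts, the right panel sets the stage difference in MuSK-null cells against that in wild-type cells, all in untreated cells; blue points were called on at least 1 axis, the dotted line marks equal differences, and the axes of a panel share no array, although the 2 panels are drawn from the same arrays. Col15a1 and Col6a3 sit at the upper right of the left panel (3.61 and 3.34 in myotubes) with Col10a1 at the bottom (-3.21), and in the right panel Col25a1 lies near the dotted line (1.40 and 1.42) while Col10a1 (2.55 and -0.49) lies far from it.

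The genotype difference of these stage changes was tested as an interaction, and 14 collagens had a more positive and 5 a more negative change in MuSK-null cells, where 29.1% of all genes were called (14.9% more positive, 14.1% more negative). The largest were Col10a1 at -3.04 (SE 0.17, adjusted p = 3.53e-12), Col15a1 at 1.74 (SE 0.15, adjusted p = 4.42e-09), Col6a3 at 1.496 (SE 0.08, adjusted p = 5.94e-13), Col6a2 at 1.24 (SE 0.09, adjusted p = 1.76e-10) and Col18a1 at -1.12 (SE 0.12, adjusted p = 9.96e-08). Col10a1, Col18a1 and Col4a5 rose with differentiation in wild-type cells and fell in MuSK-null cells, while Col6a2, Col6a3, Col3a1 and Col5a3 did the reverse. The type IV pair differed by 1.07 and 1.05, and Col6a1 by 0.97. Col4a6, the neighbour of Col4a5, was not among the calls. It was called as more negative under most alternatives and without 3 of the 12 single arrays (limma, adjusted p down to 0.00817). For type I the stage changes differed by 0.06 (Col1a1, 95% interval -0.27 to 0.38) and -0.08 (Col1a2, -0.29 to 0.14), and neither passed. Among the calls Col14a1 (-0.48, adjusted p = 0.0435) was the least firm and was lost without 9 of the 12 single arrays (adjusted p 0.0512 to 0.14): each of the 3 MuSK-null myoblast and the 3 wild-type myotube arrays, wild-type myoblast replicates 1 and 3, and MuSK-null myotube replicate 1.

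Over the 8 group means, some chains of the same molecule followed each other closely, and so did some chains of different molecules. Pearson's r, given as a description over 8 group means that all genes share, was 0.99 for Col4a1 with Col4a2, 0.93 for Col4a5 with Col4a6 and 0.90 for Col6a1 with Col6a2, each a pair of neighbouring genes with 0 protein-coding genes between them. It was 0.44 for the neighbours Col4a3 and Col4a4 and -0.04 for the neighbours Col3a1 and Col5a2. Col4a5 and Col4a6 start 1343 bases apart, so their windows share no bases. Col15a1 and Col6a3, which belong to different molecules, reached 0.99. Other pairs from different molecules were Col14a1 with Col4a5 at 0.97, Col11a1 with Col15a1 at 0.96 and Col3a1 with Col4a1 at 0.95. Col1a1 and Col1a2, chains of one molecule, reached 0.69. Within type VI, Col6a3 reached 0.94 with Col6a2 and 0.75 with Col6a1.

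The study's own question concerns BMP4. The largest collagen responses were smaller than the largest genotype and stage differences. Of the collagens, 18.2% were called in wild-type myoblasts, 11.4% in MuSK-null myoblasts, 6.82% in wild-type myotubes and 11.4% in MuSK-null myotubes. Apart from wild-type myoblasts, these shares were near those of all genes, given next. In wild-type myoblasts 3 collagens rose and 5 fell, where 11.0% of all genes were called (5.21% higher, 5.76% lower), and in MuSK-null myoblasts 2 rose and 3 fell, where 8.42% were called (3.89% higher, 4.52% lower). In wild-type myotubes 3 rose and 0 fell, where 8.77% were called (4.40% higher, 4.37% lower), and 1 collagen was lower at an unadjusted p under 0.05 in limma. In MuSK-null myotubes 1 rose and 4 fell, where 11.3% were called (5.36% higher, 5.90% lower). The median collagen change lay between -0.06 and 0.09 in the 4 comparisons. The wild-type myoblast count dropped from 8 to 5 without untreated replicate 1, untreated replicate 3 or BMP4 replicate 2, and the MuSK-null myoblast count from 5 to 3 without untreated replicate 1 or 2 or BMP4 replicate 1 or 3. MuSK-null myoblast replicates of the same number deviated together (correlations 0.12 to 0.46), and with the replicate number as a block in a fit of those groups alone the count was 2. It was also 2 in those groups alone without the block. Without the deviating myoblast arrays the fit gave 3 for MuSK-null myoblasts and, for wild-type myotubes, whose own arrays were all kept, 6, the additional 3 being Col1a1, Col3a1 and Col4a4.

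**Figure D4:**
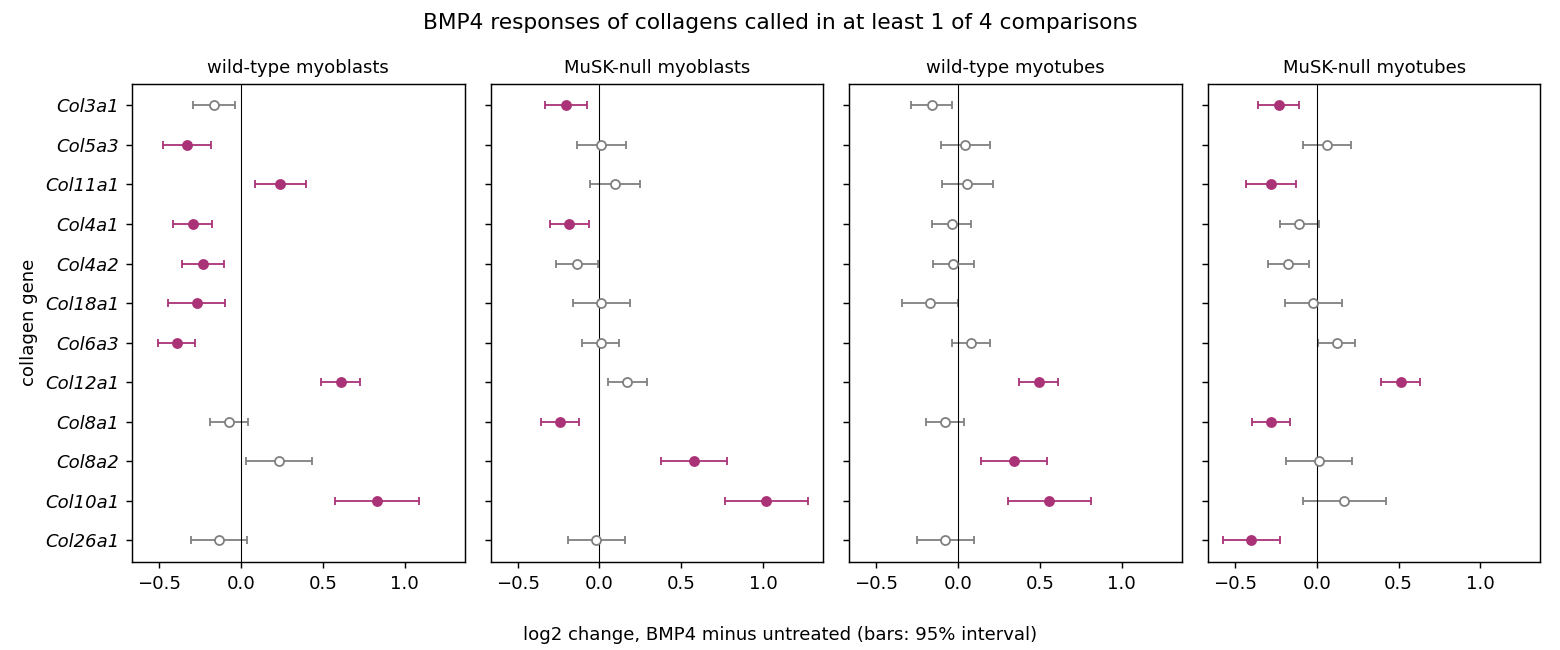
Log2 change with BMP4 (points) and its 95% interval (bars) for the collagens called in at least 1 of the 4 BMP4 comparisons, 1 panel per genotype and stage; filled points were called and open points were not. Col10a1 lies to the right in wild-type myoblasts (0.83), MuSK-null myoblasts (1.02) and wild-type myotubes (0.56), and Col12a1 in 3 of the panels (0.61, 0.49 and 0.51).

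Col10a1 had the largest collagen response in 3 of the 4 settings. With BMP4 it read 9.05, 9.21 and 8.99 in wild-type myoblasts, 9.14, 8.87 and 9.29 in MuSK-null myoblasts, 11.21, 11.54 and 11.33 in wild-type myotubes and 7.52, 7.88 and 7.90 in MuSK-null myotubes. Treated and untreated arrays did not overlap in the first 3 settings and overlapped in the last. The changes were 0.83 (SE 0.12, adjusted p = 3.00e-05), 1.02 (SE 0.12, adjusted p = 2.32e-06), 0.56 (SE 0.12, adjusted p = 0.0037) and 0.17 (95% interval -0.09 to 0.42), the last not called. The genotype difference of the response did not pass at either stage (0.19, 95% interval -0.17 to 0.55, in myoblasts and -0.39, 95% interval -0.75 to -0.03, adjusted p = 0.31, in myotubes). The summed signal of 7 chondrocyte genes was 1417 to 1544 in untreated and 1870 to 1963 in treated wild-type myoblasts, and 2449 to 2554 and 3826 to 4379 in MuSK-null myoblasts, with 1 of 7, the cartilage regulator Sox9, higher in each. That of 4 osteoblast genes went from between 603 and 747 to between 3291 and 4322 in wild-type myoblasts, with Sp7 and Alpl higher. It went from between 315 and 363 to between 640 and 781 in MuSK-null myoblasts, where the Col10a1 response was largest, and from between 453 and 517 to between 1888 and 2037 in wild-type myotubes. In MuSK-null myotubes it was 349 to 395 without and 332 to 391 with BMP4, although 1 of the 4 genes was called as higher. In wild-type myotubes 3 of the 4 were higher. The chondrocyte sum went from between 1908 and 1929 to between 2065 and 2190 in wild-type myotubes, with 0 of 7 called by limma. At an unadjusted p under 0.05, 3 were higher there. In MuSK-null myotubes the chondrocyte sum was 1966 to 2038 without and 1704 to 1785 with BMP4, with 1 lower. The part of either list in the Col10a1 response was not tested.

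Col12a1 also rose. With BMP4 it read 12.07, 12.08 and 11.97 in wild-type and 12.95, 12.93 and 12.96 in MuSK-null myoblasts, and 11.15, 11.15 and 11.15 against 12.30, 12.41 and 12.39 in myotubes. In wild-type myoblasts it rose by 0.61 (SE 0.06, adjusted p = 3.83e-08), by 0.49 (adjusted p = 1.84e-06) in wild-type myotubes and by 0.51 (adjusted p = 5.99e-07) in MuSK-null myotubes, and did not pass in MuSK-null myoblasts (0.17, 95% interval 0.05 to 0.29, adjusted p = 0.0744). The groups did not overlap there either, and Col12a1 was called with the deviating arrays as a block (adjusted p = 0.0166) and with trend and robust moderation (adjusted p = 0.0253). Col8a2 read 7.44, 7.38 and 7.54 in treated wild-type and 7.80, 7.88 and 8.00 in treated MuSK-null myoblasts. Its rise was called in MuSK-null myoblasts (0.58, SE 0.10, adjusted p = 0.00019) and in wild-type myotubes (0.34, adjusted p = 0.026), and the latter was lost without untreated replicate 1 or 2 or BMP4 replicate 2 or 3 (adjusted p 0.0588 to 0.158).

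The fall of Col4a1 with BMP4 was called in both myoblast lines. Those of Col3a1 and Col8a1 were called in MuSK-null cells at both stages. Col3a1 was not called in wild-type cells at either stage, although treated and untreated arrays did not overlap. With the deviating arrays as a block or left out, limma called it as lower in both wild-type settings. The adjusted p went down to 0.0138 in wild-type myoblasts and 0.0188 in wild-type myotubes. In wild-type myoblasts Col6a3 went to 8.52, 8.54 and 8.51, below all untreated arrays (-0.39, SE 0.05, adjusted p = 1.27e-05), and Col4a1 to 8.77, 8.79 and 8.81 (-0.29, SE 0.06, adjusted p = 0.000806). Col5a3 fell by 0.33 on the log2 scale (adjusted p = 0.00239), Col4a2 by 0.23 (adjusted p = 0.0118) and Col18a1 by 0.27 (adjusted p = 0.0376), and Col11a1 rose by 0.24 (adjusted p = 0.036). The last 3 were not firm. Col18a1 lost its call without any 1 of the 6 arrays (adjusted p 0.0539 to 0.142). Col4a2 lost it without untreated replicate 1 or 3 or BMP4 replicate 2 (0.0524 to 0.066), and Col11a1 without these or BMP4 replicate 3 (0.108 to 0.188).

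In MuSK-null myoblasts Col8a1 fell by 0.24 on the log2 scale (adjusted p = 0.00535), Col3a1 by 0.20 (adjusted p = 0.0398) and Col4a1 by 0.19 (adjusted p = 0.0459). Without the deviating arrays Col8a1 and Col4a1 did not pass (adjusted p 0.0699 and 0.0876). Col3a1 lost its call without untreated replicate 1 or 2 or BMP4 replicate 1 or 3 (adjusted p 0.0547 to 0.225), and Col4a1 without these or untreated replicate 3 (0.0506 to 0.27). In MuSK-null myotubes Col26a1 went from 9.22, 9.36 and 9.15 to 8.86, 8.74 and 8.93 (-0.40, SE 0.08, adjusted p = 0.00162), Col8a1 from 11.54, 11.62 and 11.55 to 11.32, 11.32 and 11.23 (-0.28, adjusted p = 0.00106), and Col3a1 from 11.81, 11.88 and 11.79 to 11.60, 11.58 and 11.60 (-0.23, adjusted p = 0.0126). Col11a1 fell by 0.28 on the log2 scale (adjusted p = 0.013). Col3a1 lost its call there without untreated replicate 2 (adjusted p = 0.0679), and Col11a1 without untreated replicate 1 or BMP4 replicate 1 (0.0801 and 0.0654). Type I collagen passed in none of the 4 settings: the differences were 0.18, 0.12, 0.18 and -0.03 for Col1a1 and, for Col1a2, 0.16, 0.03, 0.10 and -0.07. Nor did Col5a1, Col5a2, Col6a1 or Col6a2, whose differences lay between -0.14 and 0.19. With the deviating arrays as a block, Col1a1 (adjusted p = 0.041), Col1a2 (0.0367) and Col5a2 (0.0226) were called as higher in wild-type myoblasts, and without those arrays Col1a1 was called in wild-type myotubes (0.0358).

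The genotype difference of the BMP4 response was called for 1 collagen in each direction in myoblasts, where 2.39% of all genes were called (1.17% more positive, 1.22% more negative in MuSK-null cells). For Col12a1 the MuSK-null response was lower by 0.44 (change -0.44, SE 0.08, adjusted p = 0.00222), and for Col6a3 it was higher by 0.40 (SE 0.08, adjusted p = 0.00346). Col6a3 fell in wild-type myoblasts, and the difference in MuSK-null myoblasts was 0.01 (95% interval -0.10 to 0.12). Without the deviating arrays both stayed called, and in the compared groups alone with the replicate block the call of Col6a3 was lost (adjusted p = 0.0544). In myotubes 0 collagens were called by limma, where 3.21% of all genes were. At an unadjusted p under 0.05, 8 were more negative and 0 more positive. The share of all genes at that looser threshold is not given here, so these 2 counts cannot be set against it. The median difference was -0.13 for the collagens and -0.03 for all genes. The collagen nearest to a call, Col11a1 (-0.34, 95% interval -0.55 to -0.12, adjusted p = 0.0943), was called with the deviating arrays as a block (adjusted p = 0.0203) and without them (adjusted p = 0.034).

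The 4 lists of related genes that follow are read against the shares of all genes called: 11.0%, 8.42%, 8.77% and 11.3% with BMP4 in wild-type myoblasts, MuSK-null myoblasts, wild-type myotubes and MuSK-null myotubes, 31.3% and 37.4% between genotypes in myoblasts and myotubes, and 45.0% and 41.6% with differentiation in wild-type and MuSK-null cells. Of 21 genes on a list of collagen folding and modification inside the cell, not all of them enzymes, 20 were measured. With BMP4, 5 rose and 1 fell in wild-type myoblasts, 3 and 0 in MuSK-null myoblasts, 3 and 0 in wild-type myotubes and 5 and 0 in MuSK-null myotubes; at an unadjusted p under 0.05 in limma 0, 1 and 0 were lower in the last 3. P4ha3, a subunit of the prolyl hydroxylase that stabilises the helix, read 10.89, 10.54 and 10.90 in untreated and 11.87, 11.85 and 11.37 in treated wild-type myoblasts. It rose by 0.92 there (adjusted p = 3.21e-05), by 0.76 in wild-type myotubes (adjusted p = 0.00051) and by 0.62 in MuSK-null myotubes (adjusted p = 0.00275). P3h2, a prolyl hydroxylase that acts on basement membrane collagens, rose by 0.82 in MuSK-null myoblasts (adjusted p = 4.02e-05) and 0.58 in MuSK-null myotubes. Between untreated genotypes 9 were higher and 2 lower in MuSK-null myoblasts, with P4ha3 at 1.02 and Crtap, a partner of prolyl hydroxylation, at 0.58, and in MuSK-null myotubes 6 were higher and 4 lower. Tmem38b, a cation channel of the endoplasmic reticulum linked to brittle bone disease, was lower at both stages (-1.54 and -0.55). With differentiation 5 rose and 6 fell in wild-type and 4 rose and 8 fell in MuSK-null cells. The shares called, in the order just given, were 30%, 15%, 15%, 25%, 55%, 50%, 55% and 60%.

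Procollagen cleavage and crosslinking genes were measured for 12 of 14. With BMP4, 3 rose and 1 fell in wild-type myoblasts, 1 and 1 in MuSK-null myoblasts, 3 and 1 in wild-type myotubes and 4 and 2 in MuSK-null myotubes. Pcolce2, which speeds the removal of the procollagen end, read 7.44, 7.70 and 7.50 in untreated and 9.62, 9.50 and 9.72 in treated MuSK-null myotubes. It rose by 2.06 there (adjusted p = 3.15e-10), by 0.50 in wild-type myotubes (adjusted p = 0.0257) and in wild-type myoblasts by 0.86 (adjusted p = 9.28e-05), and the myotube responses differed between genotypes by 1.57 (SE 0.20, adjusted p = 2.61e-05). Loxl3, a lysyl oxidase that crosslinks collagen, was lower by 1.45 on the log2 scale in MuSK-null myotubes (change -1.45, adjusted p = 3.26e-14) and higher by 0.31 in MuSK-null myoblasts. In all, 7 were higher and 3 lower in MuSK-null myoblasts, and 2 higher and 5 lower in MuSK-null myotubes. With differentiation 4 rose and 4 fell in wild-type cells, and 2 rose and 6 fell in MuSK-null cells, Pcolce2 by the most (-1.63 and -2.46). The shares called were 33.3%, 16.7%, 33.3% and 50% with BMP4, 83.3% and 58.3% between genotypes in myoblasts and myotubes, against 31.3% and 37.4% of all genes, and 66.7% in each line with differentiation.

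Of 10 collagen receptors 9 were measured. With BMP4 the discoidin receptor Ddr1, a tyrosine kinase that binds collagen, went from 10.16, 10.12 and 10.13 to 10.94, 11.01 and 10.94 in wild-type myotubes (0.83, adjusted p = 4.41e-10) and rose by 0.76 in MuSK-null myotubes (adjusted p = 1.36e-09). In the order of settings used above, the receptors that rose and fell numbered 1 and 2, 3 and 1, 3 and 0 (0 lower also at an unadjusted p under 0.05 in limma), and 4 and 2. Itga1, a subunit of an integrin that binds type IV collagen, read 8.49, 8.44 and 8.41 in wild-type and 5.99, 6.04 and 5.87 in MuSK-null myoblasts. It was lower there (-2.48, SE 0.07, adjusted p = 7.83e-18) and in MuSK-null myotubes (-1.02, adjusted p = 7.15e-11), whereas Itga11, a subunit of an integrin for type I collagen, was higher by 0.89 and 1.21. Altogether 4 receptors were higher and 1 lower in MuSK-null myoblasts and 3 higher and 2 lower in myotubes, and with differentiation 1 rose and 6 fell in wild-type and 1 rose and 5 fell in MuSK-null cells. The shares called were 33.3%, 44.4%, 33.3% and 66.7% with BMP4, 55.6% at both stages between genotypes, against 31.3% and 37.4% of all genes, and 77.8% and 66.7% with differentiation.

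Of 9 genes for collagen degradation, 1 rose and 2 fell with BMP4 in wild-type myoblasts and 2 fell in MuSK-null myotubes. None was called by limma in the other 2 settings, with 0 in MuSK-null myoblasts and 2 in wild-type myotubes at an unadjusted p under 0.05. Mmp2, a gelatinase, read 11.28, 11.13 and 11.23 in wild-type and 13.09, 13.09 and 13.20 in MuSK-null myoblasts, higher by 1.91 (SE 0.06, adjusted p = 4.14e-17), and by 0.53 in myotubes. In all 2 were higher and 1 lower in MuSK-null myoblasts and 4 higher and 1 lower in MuSK-null myotubes, which is 33.3% and 55.6% of the list against 31.3% and 37.4% of all genes, so the myoblast share was near that of all genes. With differentiation Mmp2 rose in wild-type cells (0.89, adjusted p = 2.21e-11) and fell in MuSK-null cells (-0.49, adjusted p = 4.86e-07), a difference of -1.38 (SE 0.09, adjusted p = 1.76e-11), while 4 of the 9 rose and 2 fell in wild-type and 3 rose and 3 fell in MuSK-null cells, 66.7% of the list in each line.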

How the data were processed

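RNA of 24 samples (8 groups of 3, assigned by sample title) was measured on Affymetrix whole-transcript arrays. The deposited values are log2 signals, 1 per probe set and array, a scale read from the values themselves. The submitters' processing notes list Affymetrix Expression Console and Partek; the background correction and normalization used are not stated in the labels, and are not given in the sources used. Arrays have no counts, so the number of arrays limits the precision.

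Of 35556 rows, 21789 named 1 gene, 1621 several and 12146 none; 21698 one-gene rows were found in RefSeq (GRCm38.p6), with 0 symbols changed. The brightest row per gene gave 19938 genes. limma 3.58.1 in R 4.3.3 fitted 1 mean per group to all arrays (16 residual and 5.77 prior degrees of freedom). Adjusted p-values are Benjamini-Hochberg values over all genes, called under 0.05; intervals are 95%. The script was tested on simulated data.

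Members and lists were chosen with earlier results of these data known. Genes were named by rule: up to 5 largest called rises and falls per comparison, 10 main chains always, up to 2 called genes per list and direction, and Musk. Pathway and marker lists were written from general knowledge; Fkbp10, Adamts2, Loxl2, Gp6, Runx2, Bglap and Spp1 were not analysed here. Same-number replicates deviated together (every correlation over 0.1) between treated and untreated MuSK-null myoblasts (0.12 to 0.46) and between untreated myoblasts of both genotypes (0.22 to 0.42), although no label gives a shared batch; elsewhere they did not. Alternatives were fits of the compared groups alone, trend and robust moderation, a filter on genes under 6, quantile normalization, median centring, other rows per gene, replicate blocks, a 1.5-fold minimum, each array left out, and, added after seeing the data, the deviating arrays as a block or left out and the compared groups alone with replicate block.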

Additional observations from a re-analysis of the deposited data

Results flagged for a closer look

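Differences between genotypes in the change of a collagen, each tested itself as an interaction in limma (log2, MuSK-null minus wild type, adjusted over all genes), are listed here because the same contrast gave different effects in the 2 lines. For the change from myoblast to myotube, the MuSK-null change was more positive for Col15a1 (1.74), Col6a3 (1.496), Col6a2 (1.24), Col4a2 (1.07), Col4a1 (1.05), Col6a1 (0.97), Col26a1 (0.96), Col5a3 (0.92), Col8a1 (0.69), Col3a1 (0.65), Col8a2 (0.54), Col24a1 (0.43), Col5a1 (0.43) and Col11a1 (0.38). It was more negative for Col10a1 (-3.04), Col18a1 (-1.12), Col4a5 (-0.92), Col5a2 (-0.63) and Col14a1 (-0.48). For the BMP4 response of myoblasts it was more positive for Col6a3 (0.40) and more negative for Col12a1 (-0.44). The adjusted p-values ran from 5.94e-13 (Col6a3, stage) to 0.0435 (Col14a1, stage). With 1 line per genotype, the genotype and the line cannot be told apart in any of them.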

How the results depend on the processing

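Counts of called collagens kept within 1.5 times of the reported number in 190 recomputed counts and moved further in 26, and no called collagen changed sign under any alternative; among single changes 165 lost and 96 gained a call. A minimum change of 1.5-fold lowered the counts to 2 (BMP4, wild-type myoblasts), 1 (MuSK-null myoblasts), 0 (wild-type myotubes), 0 (MuSK-null myotubes), 11 and 17 (genotype in myoblasts and myotubes), 8 and 10 (differentiation, wild-type and MuSK-null) and 0 (genotype difference of myoblast responses); by its construction it admits fewer genes. Fitting the compared groups alone gave 2 for BMP4 in MuSK-null myoblasts. That fit with replicate block gave 3, 2 and 1 for BMP4 in wild-type myoblasts, MuSK-null myoblasts and MuSK-null myotubes and 1 for the myoblast difference; the replicate block over all arrays gave 8, 5, 4, 5, 20, 29, 17, 22, 2, 0 and 20 in the order of the comparisons (BMP4 in wild-type myoblasts, MuSK-null myoblasts, wild-type myotubes and MuSK-null myotubes; genotype in myoblasts and myotubes; differentiation in wild-type and MuSK-null cells; differences of myoblast responses, myotube responses and differentiation) and moved none by over 1.5 times. The deviating arrays as a block gave 5 for BMP4 in wild-type myotubes and 1 for the difference of myotube responses; without them these were 6 and 1, and BMP4 in MuSK-null myoblasts 3. The cause of these moves was not tested. Leaving out 1 array gave 5 to 7 for BMP4 in wild-type myoblasts, 3 to 5 in MuSK-null myoblasts, 2 to 4 in wild-type myotubes and 4 to 6 in MuSK-null myotubes, 19 to 21 and 26 to 30 for genotype, 15 to 18 and 20 to 22 for differentiation, and 2 to 3, 0 and 18 to 21 for the differences. Quantile normalization and median centring moved the median of all genes by less than 0.1. With 3 arrays a group, collagen changes under about the size of the reported intervals could not be told from no change.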
